A study of Oryza sativa Japonica Group with 96 samples.

Results

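The 150 array features described here stood lowest in the CRL1-inducible rice line DXC, relative to the control line DX, from 12 to 45 h after dexamethasone, once the difference between the lines at 0 h had been taken off. For each of 36643 features, the mean of DXC minus the mean of DX (3 arrays each) was taken at every hour, and the same difference at 0 h was subtracted. The average of the result over the 12 hours sampled from 12 to 45 h is called D. Of the 17354 features whose DXC mean lay below the DX mean over 12 to 45 h, the 150 with the lowest D were kept. A further 59 features had a D as low but were left out because DXC did not lie below DX over those hours. The measured values at 0 h and at 12 to 45 h chose the members, so D, its parts and the 0 h difference are given as descriptions. The counts of calls in that contrast are printed beside those over all features, and nothing is read from them. The arrays of 3, 6 and 9 h played no part in the choice, and the tests rest mainly on them. They follow the 0 h arrays of the same line and experiment, and arrays so related were correlated. Their line differences are therefore not fully independent of the choice.

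Both lines were crl1 mutants of the rice cultivar Taichung 65, which form no crown roots. DXC carried CRL1 in the vector pINDEX2, where dexamethasone switches the inserted gene on, and DX carried pINDEX2 with no insert. Each is 1 transgenic line, the promoter that drives the inducible system is not given in the sources used here, and the change of medium and the steroid reached both lines. Plantlets grew for 5 days in dishes and rested for 24 h in flasks before 1 µM dexamethasone was added, and the steroid was withdrawn after 5 h with a change of medium. Stem bases were sampled at 16 hours, from 0 to 45 h in steps of 3 h, in 3 experiments, each sample pooling several plants. Each line thus had 48 arrays, in triplicate at every hour. Levels are log2 values normalized by the authors, on which a difference of 1 is a factor of 2. The number of arrays limits the precision, and no detection call stands behind a value. No feature could be tied to CRL1 by the annotation used here, so the level of the induced gene was not analysed here.

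CRL1 encodes a transcription factor of the LATERAL ORGAN BOUNDARIES DOMAIN family that responds to auxin and is required for crown roots, the shoot-borne roots that make up most of the rice root system. Crown root primordia arise from cells beside the vascular tissue in the stem base, and several regulators act after CRL1, among them homeobox genes of the WOX family. Ethylene, brassinosteroids and peroxidases in the cell wall are known to act on the growth of such roots and of the surrounding stem tissue. In stem bases, fewer cells of a type and less RNA per cell cannot be told apart.

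The platform annotation gave a single gene symbol to 74 of the 150 members, or 49.3%, against 65.9% of all features, and the other 76 are counted but not named as genes. Of these 74 genes, 70 were protein-coding, 2 were long non-coding RNAs, 1 was a pseudogene and 1 a transcribed pseudogene, and 11 carried a name other than a LOC symbol. Among the members without a symbol, 9 features held values identical to another member in 3 sets, the largest of 5, so the 150 features gave 144 distinct profiles. No base or protein sequence is shown.

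In the median member, DXC stood above DX until 9 h and below it from 12 h on. At 0, 3, 6 and 9 h the median DXC level was 6.43, 6.39, 5.82 and 5.72, followed by 5.20 at 12 h and 5.38 at 45 h. At the same early hours the median DX level was 5.55, 5.59, 5.47 and 5.53, followed by 5.88 at 12 h and 5.90 at 45 h. For the median over all members, the crossing therefore took place between the last hour the rule left out and the first hour it used. At 9 h, however, 61 members already lay below DX. Members with a symbol crossed earlier, with a median difference of 0.06 at 6 h and -0.31 at 9 h, below 0 in 51 of 74. For the other 76 the median difference was 0.63 at 9 h and -0.37 at 12 h. Over all members, the median difference was 0.87, 0.70, 0.53 and 0.22 at 0, 3, 6 and 9 h, then -0.57 at 12 h. It lay between -0.66 and -0.36 from 15 to 45 h. D had a median of -1.28 and ran from -2.82 to -1.09. DXC lay below DX at each of the 12 hours in 71 members and at 9 or more of them in 100. The lowest difference came at 12 to 21 h in 70 members, at 24 to 33 h in 19 and at 36 to 45 h in 61.

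**Figure D1:**
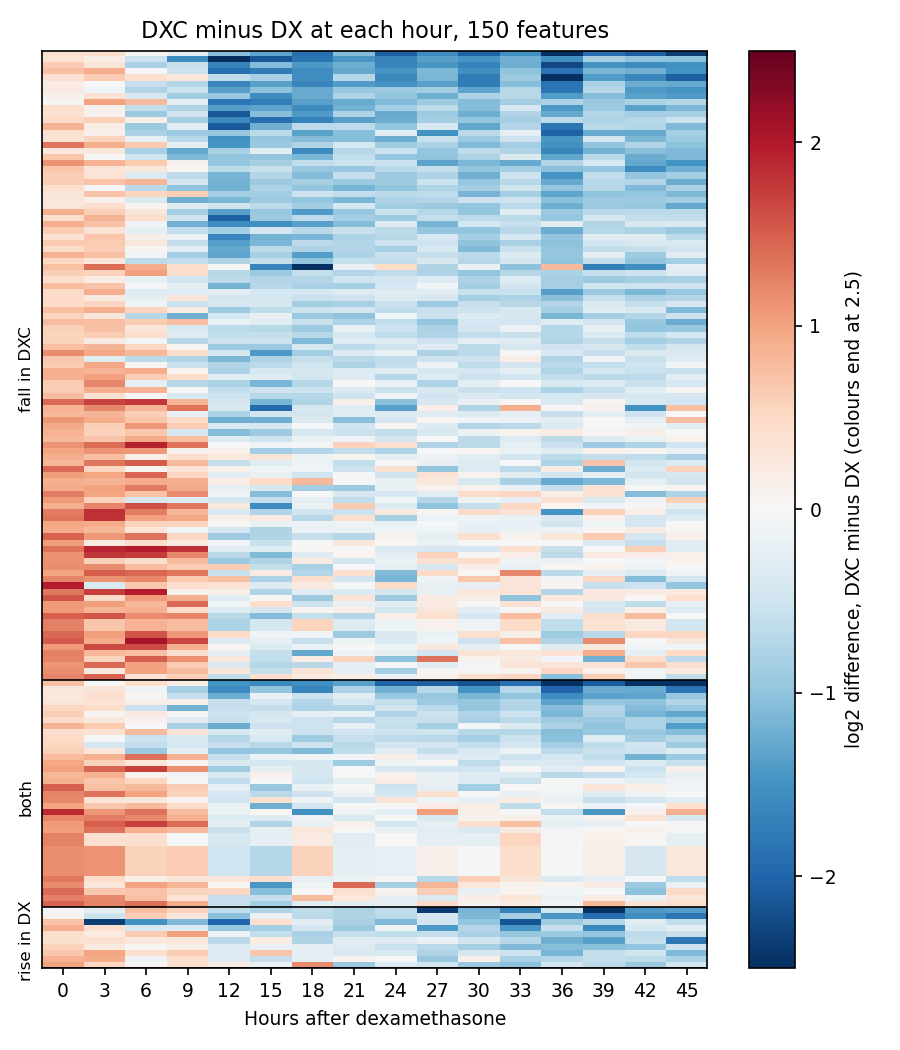
Difference DXC minus DX (log2, colour) at each of 16 hours (columns) for the 150 features (rows), in the 3 classes of the text and in order of the 12 to 45 h difference within a class. Blue fills the columns from 12 h in the upper rows of the first 2 classes, while their lower rows are red from 0 to 9 h and pale afterwards.

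A lower DXC level from 12 h makes up only part of D, because nearly all of these features were higher in DXC before dexamethasone was given. D is the 12 to 45 h difference minus the 0 h difference, and the 0 h difference lay above 0 in 149 of the 150 members, against 20104 of the 36643 features. Its median over the members was 0.87, beside a median 12 to 45 h difference of -0.47. The part at 12 to 45 h was the larger in 55 members and the part at 0 h in 95. The members with a gene symbol differed from the rest in this respect. With a symbol, the median was 0.61 at 0 h and -0.70 over 12 to 45 h, and the later part was the larger in 45 of 74. Without a symbol, the median was 1.13 at 0 h and -0.15 over 12 to 45 h, and the later part was the larger in 10 of 76. These counts rest on the values that chose the members, so the gap between members with and without a symbol is a description, and nothing is read from it.

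**Figure D2:**
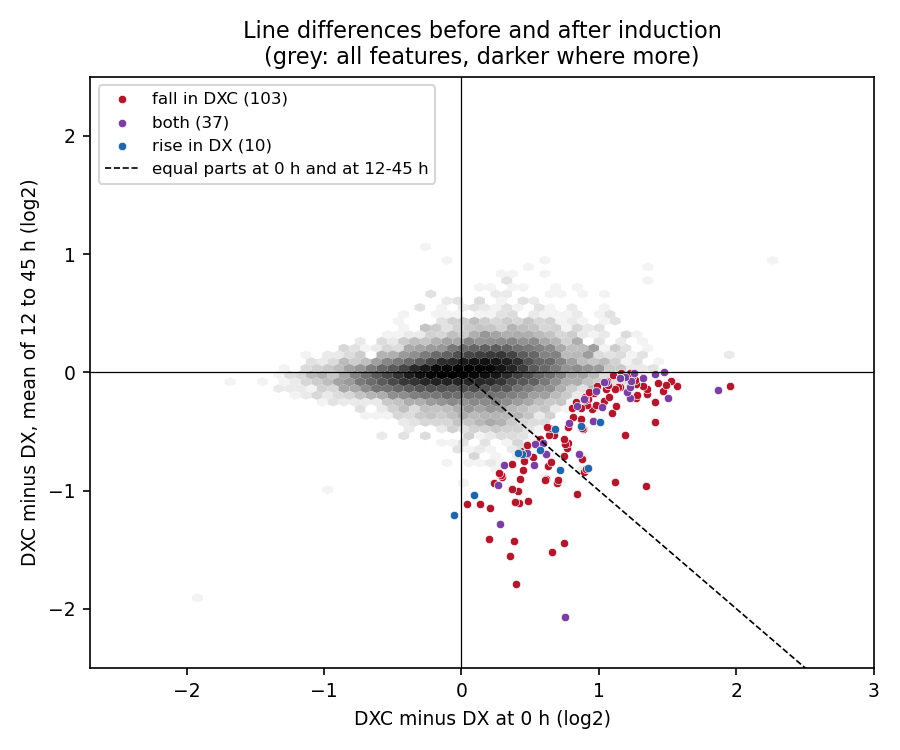
DXC minus DX averaged over 12 to 45 h (vertical, log2) against DXC minus DX at 0 h (horizontal, log2) for the 150 members (coloured by class) over all 36643 features (grey, darker where more features lie). Points below the dashed line, 55 of 150, owe more of D to 12 to 45 h, and the 0 h difference lies above 0 in 149.

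The arrays of 0 to 9 h also differed in spread between the lines. The SD over all features of an array averaged 1.65 in the 12 DXC arrays of 0 to 9 h and 1.52 in the 12 DX arrays, whereas from 12 to 21 h it averaged 1.59 in DXC and 1.60 in DX. In experiment 2, where the 0 to 9 h spreads were closest, 1.65 in DXC and 1.62 in DX, the median 0 h difference of the members was 0.65. It was 0.76 in experiment 1, with spreads of 1.63 in DXC and 1.49 in DX, and 0.88 in experiment 3, with 1.66 in DXC and 1.44 in DX. The rule used these 0 h arrays, so a median above 0 in each experiment is a description and nothing is read from it. After quantile normalization, which gives all arrays the same spread, the members' median 0 h difference was 0.69, against 0.87 as reported. Their median 3 h difference was then 0.51, against 0.70. The part of array spread in the 0 h difference was not tested. Photosynthesis genes, which mark leaf tissue, were among the lists that stood apart at 0 h: their mean level over 10 features was 6.93 to 7.17 in the 3 DXC arrays of 0 h and 6.54 to 6.77 in the 3 DX arrays, with no overlap. From 12 to 45 h the same mean ran from 5.93 to 6.94 in DXC and from 6.06 to 6.94 in DX. At 0 h clock genes (6.70 to 6.81 in DXC, 6.40 to 6.67 in DX) and aquaporins (5.57 to 5.64, 5.46 to 5.51) were also higher in DXC without overlap. Defence genes (4.23 to 4.33 in DXC, 4.42 to 4.52 in DX) and MADS genes (3.46 to 3.53, 3.61 to 3.77) were lower without overlap. The HD-ZIP and ROC, NAC, MYB and bHLH, brassinosteroid and peroxidase lists were higher too, and the gibberellin list lower, all without overlap. Of these, the NAC, MYB and bHLH, brassinosteroid and peroxidase lists hold members, whose 0 h values the rule used. The share of all features without overlap at 0 h was not computed, so no list is read as standing apart from features in general. None of the 10 photosynthesis features was a member, their median D was -0.52 with 9 of 10 below 0, and their part in the members' 0 h difference was not tested. The means of shoot meristem KNOX genes (10 features) and of root genes (5 features) overlapped between the lines at 0 h, and their median D was -0.01 and -0.00.

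D was split into the change of DXC from 0 h and the change of DX from 0 h, each to the mean of 12 to 45 h. In 103 members at least 2/3 of D came from a lower DXC level (the class "fall in DXC"), in 10 at least 2/3 came from a higher DX level ("rise in DX"), and in 37 it came from both. The DXC change had a median of -1.17 in the class "fall in DXC", -0.64 in the mixed class and -0.08 in the class "rise in DX". The DX change had a median of 0.18, 0.59 and 1.18 in the same order of classes. Over all members, DXC changed by a median of -1.06, below 0 in 145, and DX by 0.26, above 0 in 125. A lower level in DXC was therefore the more frequent component, but most members also stood higher in DX from 12 h on than at 0 h.

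**Figure D3:**
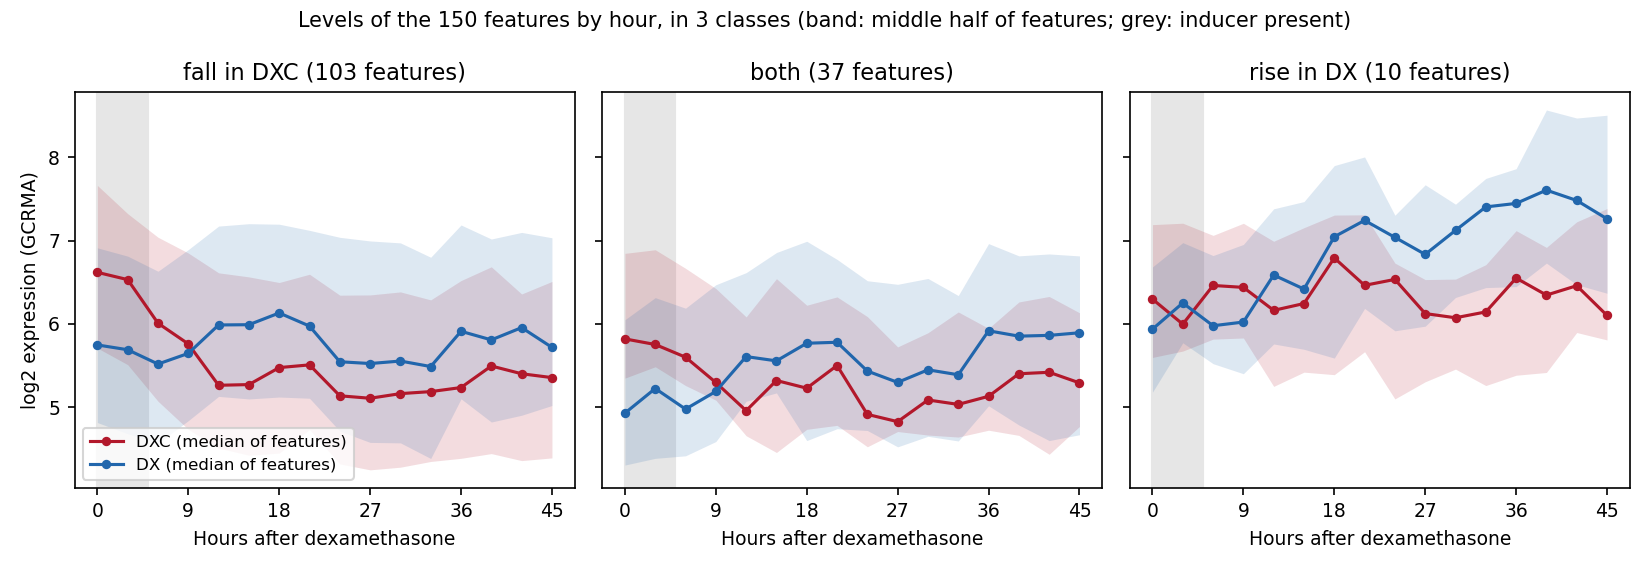
Median log2 level of the members by hour in DXC (red) and DX (blue), in 3 panels for the classes of 103, 37 and 10 features; bands hold the middle 50% of features and grey marks the 5 h with dexamethasone. In the first 2 panels DXC starts above DX and lies below it from 12 h, and in the third DX climbs while DXC stays near its 0 h level.

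At single hours, all 3 DXC arrays lay below all 3 DX arrays in 35.3% of the members' feature-hours from 12 to 45 h, where the share over all features was 4.58%; the rule used these arrays, so the gap between the shares is no finding. The separation was complete at all 12 hours in 4 members, LOC4347897, ACO1, LOC4345964 and PRX112, at 6 or more hours in 50, and at no hour in 26. The median was 3 hours in the members and 0 over all features. The shares of all features at these counts were not computed, and nothing is read from them. The contrast of 12 to 45 h with 0 h, which the rule used, passed limma's test in 34 members, all lower. Of all features, 0.199% were lower and 0.0873% higher, 0.287% in all, and nothing is read from the count of members. That count was 59 in the fit blocked on the experiment, where 221 of all features were called. Without experiments 1, 2 and 3 it was 17, 0 and 2, where 36, 3 and 4 of all features were called. Complete separation at an hour held in 54.6% of feature-hours for members with a symbol, where the share over all features with a symbol was 5.01%. For the other members it held in 16.6%, where the share over all features without a single symbol was 3.73%. The rule used these arrays, so nothing is read from these shares.

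The members were chosen on the mean of the 3 experiments, which largely fixes the sign in each, so the values by experiment are descriptions. D was below 0 in all 3 experiments in 144 of 150, with medians of -1.24, -1.45 and -1.31 in experiments 1 to 3. The 12 to 45 h difference itself lay below 0 in all 3 experiments in 94 (12.5% of all features), with medians of -0.33, -0.73 and -0.37. When the rule was applied to 2 experiments and read in the experiment left out, it shared 88, 85 and 88 features with the 150. The median D of the features so chosen was -0.67, -0.75 and -0.76 in held-out experiments 1, 2 and 3, and 122, 120 and 123 of 150 lay below 0, against 53.3%, 49.3% and 56.1% of all features. The held-out 12 to 45 h difference was less steady, with medians of -0.13, -0.49 and 0.05 and 110, 128 and 71 of 150 below 0, against 47.7%, 44.9% and 50.1% of all features. In experiment 3 the features chosen on the other experiments thus lay below 0 about as often as any feature did, and their held-out D came from the 0 h difference, whose median there was 0.64.

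At the edge of the choice, the last 5 members had D from -1.094 to -1.091 (LOC4326722 among them), and the next 5 eligible features had D from -1.088 to -1.085 (LOC4326116 among them). The choice of 150 thus fell in an unbroken run of values.

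The first hours after dexamethasone, which the rule did not use, hold the arrays for tests on the members. Arrays of a line, an experiment and 4 consecutive sampling times had an estimated residual correlation of 0.439. The 0 and 3 h arrays are related in this way, so the choice on 0 h values can carry into the 3 h difference. At 3 h, with the steroid still present, the DXC minus DX difference had a median of 0.70 and lay below 0 in 12 of 150 members. By experiment the median was 0.68, 0.12 and 1.21, and 132, 88 and 138 members lay above 0, so experiment 2 showed little of it. Without experiment 3 the median was 0.43. No member passed limma's moderated test at an adjusted p under 0.05 (Benjamini-Hochberg over all features), where 0.0928% of all features did (0.03% lower and 0.0628% higher in DXC). At an unadjusted p under 0.05, 54 members were higher and 1 lower, against 7438 higher and 5203 lower of the 36643 features. A fit blocked on the experiment called 29 members, each higher in DXC, where 3452 of all features were called higher. Leaving out experiment 2 gave 34, each higher, where 3579 of all features were. With the arrays of a line, an experiment and 4 consecutive sampling times as a random block (array sets), 31 were called higher and 1 lower, where 3748 and 2386 of all features were.

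At 6 and 9 h some members lay below DX and others above it, as did features in general. The mean difference of 6 and 9 h passed the test in 59 members, where 50.2% of all features did, 21 of them lower in DXC (24.1% of all features) and 38 higher (26.2%). These shares lie near or below the background, so the counts are no result about the members as a set. Of the 74 members with a symbol, 18 were lower and 8 higher, where 5951 and 6974 of all 24161 features with a symbol were. Of the other 76, 3 were lower and 30 higher, where 2864 and 2612 of all 12482 features without a symbol were. Leaving out experiment 1 or 3 reduced the 59 calls to 26 or 14, where 6906 or 2205 of all features were called. With array sets as a random block 30 members were called, where 13321 of all features were, against 18401 in the fit reported.

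The move away from the 3 h difference was tested directly, as the 6 and 9 h difference minus the 3 h difference. It lay below 0 in 121 of 150 members with a median of -0.46, beside a median of -0.02 and 54.7% below 0 over all features. For members with a symbol the median was -0.66, below 0 in 64 of 74, and for the others it was -0.23, below 0 in 57 of 76. The shift lay in DXC: the DXC level of 6 and 9 h minus that of 3 h had a median of -0.41, and the DX level one of -0.05. In experiments 1, 2 and 3 the shift had medians of -0.37, -0.47 and -0.45, below 0 in 107, 111 and 106 members. Of single members, 1, a feature without a symbol, passed the test, lower in DXC (0.0327% of all features were lower and 0.355% passed in either direction), and 30 members were lower and 0 higher at an unadjusted p under 0.05, against 684 lower and 797 higher of the 36643 features. Blocking on the experiment gave 2 calls, where 184 of all features were called. Leaving out experiment 2 or 3 gave 0, where 27 or 66 of all features were called. With array sets as a random block 11 members were called, all lower, where 136 of all features were called lower and 320 higher.

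**Figure D4:**
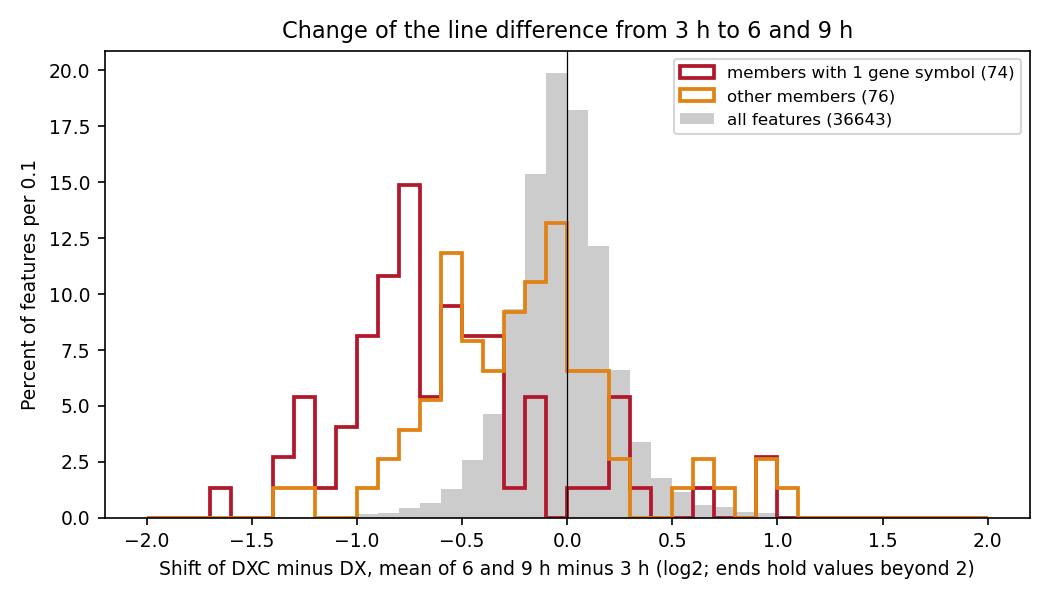
Share of features (percent per 0.1 log2) by the shift of DXC minus DX from 3 h to the mean of 6 and 9 h, for the 74 members with a gene symbol (red), the 76 others (orange) and all 36643 features (grey). The members with a symbol centre on -0.66 and the others on -0.23, where all features centre on -0.02.

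Among enzymes of the cell wall, the members included PRX74 and PRX112, both class III peroxidases, a family of secreted haem enzymes that act on wall phenolics and hydrogen peroxide. PRX74 (LOC4339222) had 6.71, 7.04 and 6.95 in the 3 DXC arrays of 0 h, against 6.09, 6.43 and 5.94 in DX. Across 12 to 45 h its 36 DXC arrays ran from 3.90 to 5.57 with a median of 4.50, against 4.59 to 6.82 with a median of 6.14 in DX. DXC was thus the higher line at 0 h without overlap and the lower one afterwards, with no overlap at 10 of the 12 hours. DXC averaged 6.73 ± 0.05, 6.07 ± 0.42, 5.18 ± 0.75 and 4.54 ± 0.12 at 3, 6, 9 and 12 h (SD, n = 3), while DX averaged between 5.72 and 6.43 at these hours. The 6 and 9 h difference was -0.27 ± 0.29 (SE, limma adjusted p = 0.434) and the shift from 3 h was -1.18 ± 0.50 (adjusted p = 0.936). Neither early value passed, but the shift did with array sets as a random block (adjusted p = 0.0395). At 9 h the DXC mean already lay within the range of the later DXC arrays.

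PRX112 started level in both lines, at 5.06, 5.48 and 5.45 in DXC and 4.79, 5.32 and 5.48 in DX. From 12 to 45 h the DXC arrays ran from 3.39 to 4.88 with a median of 4.20, against 4.10 to 6.10 with a median of 5.27 in DX. The 3 DXC arrays lay below the 3 DX arrays at each of the 12 hours. It was already lower at 6 and 9 h, by -0.65 ± 0.23 (SE, limma adjusted p = 0.0171), a call that was lost without experiment 3 (-0.48, adjusted p = 0.266), with array sets as a random block (adjusted p = 0.0583) and with the arrays of 6 and 9 h alone (adjusted p = 0.0531). The annotation names few peroxidases: of 5 features found by that word or by a PRX or POX symbol, these 2 were members and the other 3 had D between -0.14 and 0.38. At 6 and 9 h, 3 of the 5 were called lower in DXC and 0 higher, where 24.1% of all features were called lower and 26.2% higher.

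ACO1 (LOC4347225), which encodes the ACC oxidase that carries out the last step of ethylene synthesis, was the ninth lowest feature by D. It had 8.81, 9.03 and 9.08 in DXC at 0 h, against 8.54, 8.96 and 8.37 in DX, which overlapped. The DXC arrays of 12 to 45 h ran from 5.36 to 8.68 with a median of 7.63, against 8.04 to 9.51 with a median of 9.21 in DX, and the lines did not overlap at any of the 12 hours. ACO1 is among the members whose D came mostly from after induction, with -1.56 over 12 to 45 h and 0.35 at 0 h. At 6 and 9 h it was lower in DXC by -1.06 ± 0.25 (SE, limma adjusted p = 0.000899), and it stayed past the threshold with each experiment left out. DXC averaged 7.21 ± 0.34 at 9 h and 6.07 ± 0.63 at 12 h, its lowest hour, against 8.79 ± 0.49 and 9.28 ± 0.23 in DX (SD, n = 3). The shift from 3 h, -1.24 ± 0.43, did not pass (adjusted p = 0.453), but passed with array sets as a random block (adjusted p = 0.032).

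Other genes of ethylene synthesis and perception did not share this profile. Of 11 features of ACC synthases, ACC oxidase, ethylene receptors and EIN or EIL factors, ACO1 was the only member, and the other 10 had D from -0.80 (ACS1, an ACC synthase) to 0.38 (ETR4, a receptor). The median D of the list was -0.04, against -0.02 over all features. At 6 and 9 h 4 of the 11 were called lower and 2 higher in DXC, where 24.1% and 26.2% of all features were. With 11 features, nothing is read from these counts. LOC4347224, separated from ACO1 by 1 gene in the annotation's order, was a member too. It had 6.16, 6.13 and 6.23 in DXC at 0 h, against 5.75, 5.99 and 5.93 in DX, and medians of 5.46 in DXC and 6.68 in DX from 12 to 45 h. Unlike ACO1, it owed D to both lines, with a DXC change of -0.74 and a DX change of 0.82. At 6 and 9 h its difference was -0.47 ± 0.21 (SE, limma adjusted p = 0.0615).

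**Figure D5:**
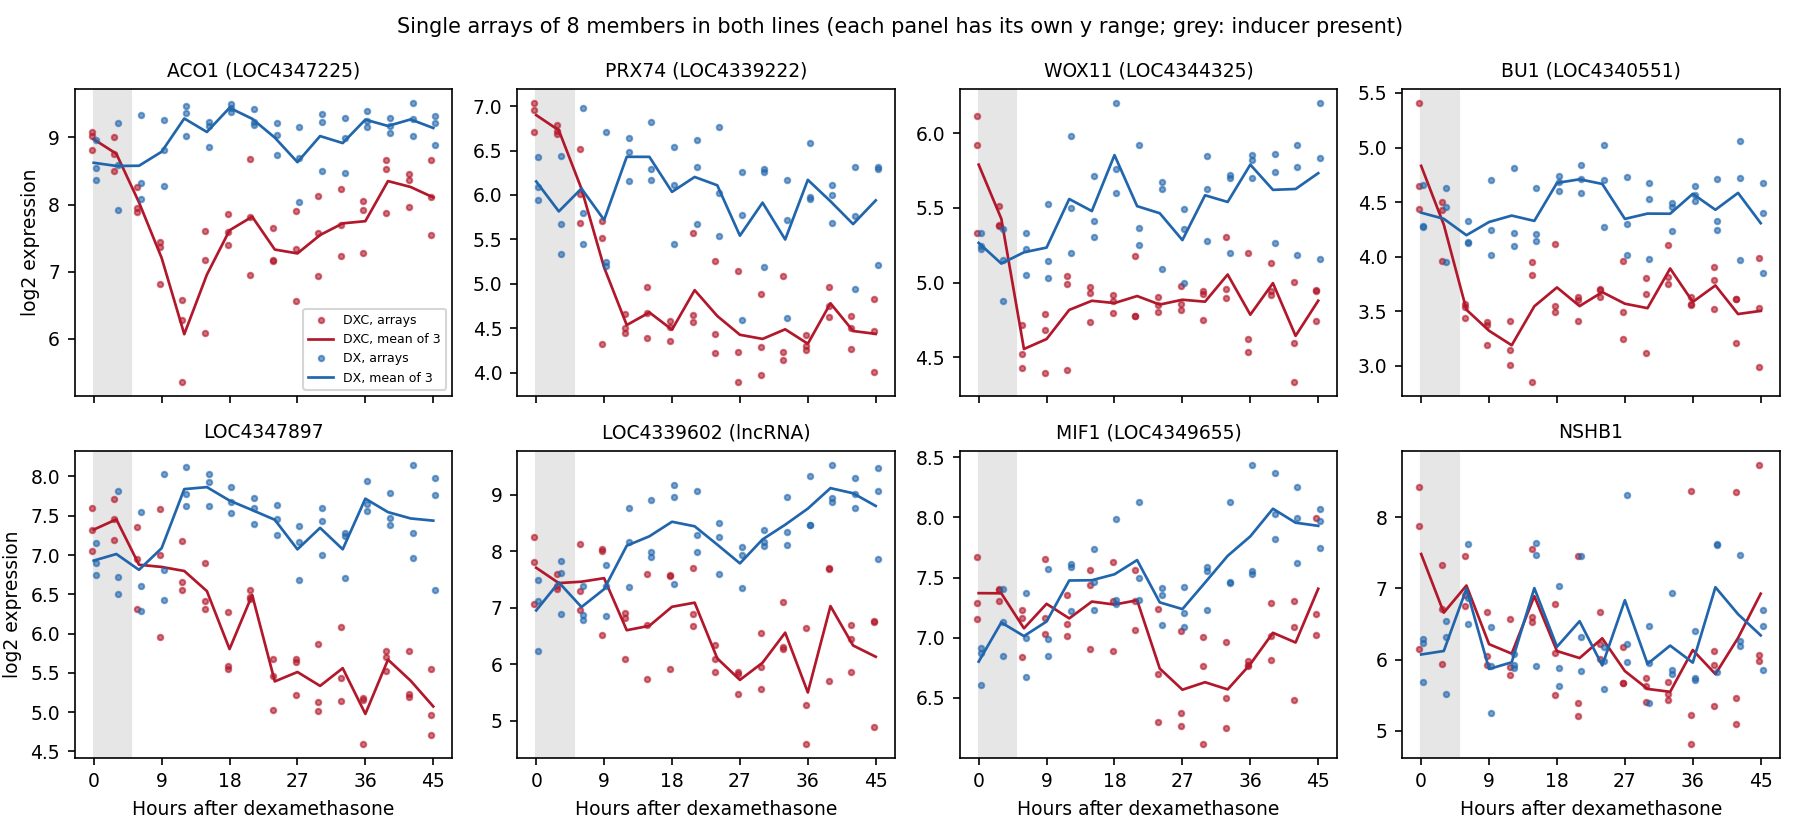
Log2 level of 8 members by hour in DXC (red) and DX (blue), single arrays as points and means of 3 as lines, each panel with its own vertical range and with grey over the 5 h of dexamethasone. ACO1 is lowest in DXC at 12 h (6.07), WOX11 at 6 h (4.55), LOC4347897 at 36 h (4.98), and NSHB1 overlaps between the lines at most hours.

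WOX11 (LOC4344325) is a WUSCHEL-related homeobox gene that promotes the emergence and growth of crown roots in rice, and it was at its lowest DXC level by 6 h. It had 5.33, 5.92 and 6.11 in DXC at 0 h, against 5.33, 5.24 and 5.23 in DX. At 6 h the 3 DXC arrays stood at 4.42, 4.72 and 4.52, against 5.05, 5.22 and 5.34 in DX. Later, at 12 to 45 h, DXC ran from 4.33 to 5.31 with a median of 4.91, and DX from 5.00 to 6.20 with a median of 5.65, without overlap at 11 of the 12 hours. WOX11 thus fell below DX between 3 and 6 h, within the time of the steroid and the change of medium. Its DXC means stayed between 4.62 and 5.05 from 9 h on. The 6 and 9 h difference was -0.63 ± 0.15 (SE, limma adjusted p = 0.00119) and passed with each experiment left out. The shift from 3 h was -0.93 ± 0.26 (adjusted p = 0.134), and in the fit blocked on the experiment its adjusted p was 0.0256. Array sets as a random block gave a limma adjusted p of 0.00133. In a list of annotated WOX features drawn up after the members were known, the other 7 had D from -0.31 to 0.45, and of the family of 8, 6 were called lower and 2 higher at 6 and 9 h, where 24.1% and 26.2% of all features were. QHB, the homeobox gene of the quiescent centre, moved the other way from 3 h to 6 and 9 h, by 1.33 (limma adjusted p = 0.000637).

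BU1 and BUL1 encode atypical helix-loop-helix proteins that promote brassinosteroid responses and bending of the rice leaf joint. BU1 (LOC4340551, also ILI4) had 4.44, 4.65 and 5.41 in DXC at 0 h, against 4.66, 4.27 and 4.28 in DX, which overlapped. From 12 to 45 h DXC ran from 2.85 to 4.11 with a median of 3.61, against 3.85 to 5.06 with a median of 4.55 in DX, and 11 of the 12 hours showed no overlap. BU1 was lower in DXC at 6 and 9 h by -0.84 ± 0.18 (SE, limma adjusted p = 0.000311), also with each experiment left out. Its D was uneven between experiments, at -0.40, -1.36 and -2.23, with 0 h differences of -0.22, 0.38 and 1.13 and 12 to 45 h differences of -0.62, -0.98 and -1.10.

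BUL1 (LOC4330725, also ILI5 and PGL2) began higher in DXC, at 7.65, 7.54 and 8.11, against 6.55, 7.13 and 6.99 in DX. Over the 12 later hours it ran from 5.77 to 7.53 with a median of 6.31 in DXC and from 5.99 to 8.05 with a median of 7.17 in DX. The lines overlapped at 7 of the 12 hours, and the 6 and 9 h difference was -0.45 ± 0.30 (SE, limma adjusted p = 0.194, and -0.70 with 0.0229 after quantile normalization). BLE3 (LOC4338204), named for its induction by brassinolide in rice, took another course. It was higher in DXC at 6 and 9 h by 0.57 ± 0.20 (limma adjusted p = 0.0188), a call lost without experiment 1 (0.38, adjusted p = 0.256) or experiment 3 (0.42, adjusted p = 0.223) and with the arrays of 6 and 9 h alone (adjusted p = 0.0841). From 12 to 45 h its median was 5.01 in DXC and 5.71 in DX. Of 19 features of brassinosteroid synthesis and signalling, a list drawn up after the members were known, these 3 were members, the median D was -0.10, and at 6 and 9 h 4 were called lower and 8 higher, where 24.1% and 26.2% of all features were.

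ADC2 (LOC4334917), an arginine decarboxylase of polyamine synthesis, had 5.66, 5.66 and 6.24 in DXC at 0 h, against 4.52, 4.94 and 6.44 in DX. The 3 DXC arrays lay within the range of the DX arrays. At 9 h DXC stood at 4.79, 4.68 and 4.78, against 6.03, 6.50 and 5.30 in DX, with no overlap. The 6 and 9 h difference was -0.95 ± 0.26 (SE, limma adjusted p = 0.00359), which became -0.56 (adjusted p = 0.163) without experiment 2. Across 12 to 45 h the medians were 4.82 in DXC and 5.48 in DX, and 5 of the 12 hours showed no overlap.

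NSHB1, a non-symbiotic haemoglobin, a protein class that binds oxygen and nitric oxide, was a member through its 0 h values. It had 7.87, 6.15 and 8.43 in DXC at 0 h, against 6.29, 6.24 and 5.69 in DX, so 2 of the 3 DXC arrays stood apart from all others of that hour. From 12 to 45 h the medians were 5.91 in DXC and 6.13 in DX, and only 1 of the 12 hours was without overlap. Its relative NSHB2 had a D of -1.96 but was no member, because DXC lay 0.10 above DX over 12 to 45 h. The locus annotated with the synonyms HSFA2C and ARD1 (LOC4348646, a transcribed pseudogene in the annotation) was of the same kind, with a 0 h difference of 1.07, a 12 to 45 h difference of -0.21 and no hour without overlap. Of 47 heat shock features it was the only member, and the median D of that list was 0.08.

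Most of the lowest members have no known role in the tables used here. LOC4349331 had 6.33, 5.57 and 6.99 in DXC at 0 h, against 5.27, 4.57 and 5.02 in DX, and medians of 4.12 in DXC and 5.20 in DX from 12 to 45 h. More than the later hours, the 0 h difference of 1.34 set its D of -2.30, and the same held for LOC4348445, with 1.12 at 0 h and -0.93 from 12 to 45 h, and for LOC4336616, with 1.19 and -0.53. LOC4336616 was also higher in DXC at 6 and 9 h, by 0.62 ± 0.24 (SE, limma adjusted p = 0.0262), but not past the threshold without experiment 1 (0.51, adjusted p = 0.213) or experiment 3 (0.17, adjusted p = 0.674). LOC4324060 and LOC4342139 took all of D from DXC, whose change was -2.02 and -1.91, while DX changed by -0.28 and -0.18. LOC9271283 likewise had a DXC change of -1.90 and a DX change of -0.48. It was lower in DXC at 6 and 9 h by -0.85 ± 0.30 (SE, limma adjusted p = 0.0173), a call lost without experiment 1 (-0.77, adjusted p = 0.121) or experiment 2 (-0.55, adjusted p = 0.239). With array sets as a random block neither LOC4336616 nor LOC9271283 passed (limma adjusted p = 0.0801 and 0.0793). LOC4347763 was lower by -0.59 ± 0.24 at 6 and 9 h (SE, limma adjusted p = 0.0347), and did not pass without experiment 1 (-0.62, adjusted p = 0.108) or experiment 2 (-0.28, adjusted p = 0.469), or with array sets as a random block (adjusted p = 0.112). In all, 4 alternative fits lost the call for each of LOC4336616, LOC9271283 and LOC4347763, and 4, 5 and 5 kept it.

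LOC4347897 and LOC4347898, separated by 1 gene in the annotation's order, had their widest gap to DX late. LOC4347897 had 7.05, 7.60 and 7.32 in DXC at 0 h, against 6.89, 7.15 and 6.74 in DX. In DXC it averaged 6.80 ± 0.34 at 12 h, 5.39 ± 0.33 at 24 h and 4.98 ± 0.33 at 36 h, against 7.84 ± 0.26, 7.45 ± 0.19 and 7.72 ± 0.20 in DX at those hours (SD, n = 3). The 3 DXC arrays lay below the 3 DX arrays at all 12 hours. LOC4347898 had 8.30, 8.28 and 8.31 in DXC at 0 h, against 7.66, 8.29 and 7.81 in DX, and averaged 7.85 ± 0.21 at 12 h and 5.58 ± 0.43 at 36 h in DXC, against 8.48 ± 0.55 and 8.41 ± 0.34 in DX. At 6 and 9 h neither differed from DX past the threshold (-0.09 ± 0.24, limma adjusted p = 0.775, and 0.35 ± 0.34, adjusted p = 0.38).

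LOC9271064 and LOC4339878 lie next to each other in the annotation, and both were called lower in DXC at 6 and 9 h in the fit reported. LOC9271064 had 8.99, 8.81 and 8.95 in DXC at 0 h, against 8.04, 8.36 and 8.38 in DX, and medians of 7.19 in DXC and 8.73 in DX from 12 to 45 h, with 10 hours of 12 without overlap. LOC4339878 had 4.60, 5.26 and 4.76 in DXC at 0 h, against 4.37, 4.39 and 4.52 in DX, and later ran from 3.56 to 4.28 in DXC and from 4.04 to 5.12 in DX, with 11 hours without overlap. The 6 and 9 h differences were -0.68 ± 0.26 (SE, limma adjusted p = 0.0273) and -0.32 ± 0.14 (adjusted p = 0.0469). Neither passed without experiment 2, at -0.37 (limma adjusted p = 0.365) and -0.23 (adjusted p = 0.214), or without experiment 3, at -0.70 (adjusted p = 0.124) and -0.27 (adjusted p = 0.325). With array sets as a random block their limma adjusted p was 0.0634 and 0.145. In all, 4 alternative fits lost the call and 5 kept it for LOC9271064. For LOC4339878, 5 lost it and 3 kept it.

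LOC4346594 fell below DX between 3 and 6 h, as WOX11 did. It had 4.90, 5.15 and 4.94 in DXC at 3 h, against 4.84, 4.85 and 4.46 in DX, and 3.93, 4.01 and 3.94 in DXC at 6 h, against 4.75, 5.10 and 4.45 in DX. All DXC arrays lay above all DX arrays at 3 h and below them at 6 h. The 6 and 9 h difference was -1.05 ± 0.22 (SE, limma adjusted p = 0.00028), past the threshold with each experiment left out. Its shift from 3 h, -1.33 ± 0.38, had a limma adjusted p of 0.141. LOC4342139 and LOC4326149 had shifts of -1.38 ± 0.47 (adjusted p = 0.435) and -1.68 ± 0.56 (adjusted p = 0.396), and LOC4330080 one of -1.22 ± 0.41 (adjusted p = 0.387). None of these 4 shifts passed in the fit reported, and all did once array sets were a random block, with limma adjusted p of 0.0117 for LOC4346594, 0.0186 for LOC4342139, 0.0213 for LOC4326149 and 0.00386 for LOC4330080. For LOC4342139 the 6 and 9 h difference was -0.64 ± 0.27 (SE, limma adjusted p = 0.0437), a call lost without experiment 1 (-0.37, adjusted p = 0.338) or experiment 2 (-0.40, adjusted p = 0.302), or with array sets as a random block (adjusted p = 0.102). In all, 5 alternative fits lost that call and 3 kept it.

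The long non-coding RNA LOC4339602 had the lowest D of all, with a contribution from each line. It had 8.25, 7.81 and 7.07 in DXC at 0 h, against 7.49, 7.13 and 6.24 in DX. Later, at 12 to 45 h, DXC ran from 4.59 to 7.71 with a median of 6.40, against 7.34 to 9.53 with a median of 8.42 in DX, with no overlap at 11 of the 12 hours. Its DXC change was -1.31 and its DX change 1.52. At 3 h the lines stood together, with a difference of -0.01 ± 0.50 (SE, limma adjusted p = 0.988), and at 6 and 9 h the difference was 0.32 ± 0.36 (adjusted p = 0.449). A lower DXC level of this RNA was therefore seen only from 12 h on, in the arrays that the rule used.

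In 10 members the control line supplied at least 2/3 of D. MIF1 (LOC4349655), a mini zinc finger protein of a class known in Arabidopsis to hold back other zinc finger homeodomain factors, had 7.67, 7.16 and 7.29 in DXC at 0 h, against 6.92, 6.61 and 6.88 in DX. DXC averaged 7.16 ± 0.17, 6.78 ± 0.02 and 7.41 ± 0.52 at 12, 36 and 45 h, against 7.48 ± 0.22, 7.84 ± 0.51 and 7.93 ± 0.17 in DX (SD, n = 3). The DXC change of MIF1 was thus -0.39 and its DX change 0.83. LOC4334467 had a DXC change of -0.57 and a DX change of 1.15, and its lines overlapped at 8 of the 12 hours. In LOC4341087, the only member that was not above 0 at 0 h, and in LOC9266183 DXC also stood higher at 12 to 45 h than at 0 h, by 0.38 and 0.18, while the DX change was 1.54 and 1.31. LOC4340022 had a DXC change of -0.21 and a DX change of 0.92. It was higher in DXC at 6 and 9 h 0.84 ± 0.19 (SE, limma adjusted p = 0.000886), a call lost without experiment 3 (0.58, adjusted p = 0.106). The other 5 members of this class had no symbol. LOC4341272, of the mixed class, had a DXC change of -0.87 and a DX change of 0.68.

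Within the window of 12 to 45 h, few members passed a test for a change in their distance to DX. The difference at 36 to 45 h minus that at 12 to 21 h, a contrast that the choice of members does not fix although it uses the same arrays, had a median of 0.07 over the members and 0.02 over all features. It passed limma's test in 3 members, 1 lower (0.385% of all features) and 2 higher (0.0655%), where 0.45% of all features passed in either direction. At an unadjusted p under 0.05 in limma's test, 18 members were lower and 10 higher, against 2005 lower and 1562 higher of the 36643 features. Blocking on the experiment gave 6 calls, where 325 of all features were called. Without experiments 1, 2 and 3, 1, 1 and 0 were left, where 36, 13 and 63 of all features were called. Since these arrays also chose the members, the values of single genes are given with that limit. When array sets were the random block, 0 members and 0 of all features passed limma's test, and 10 members had an unadjusted p under 0.05. ACO1 averaged 7.12 ± 0.20 in DXC at 12 to 21 h and 8.12 ± 0.26 at 36 to 45 h (SD over 3 experiments), against 9.27 ± 0.13 and 9.21 ± 0.14 in DX, a shift of 1.06 ± 0.25 (SE, limma adjusted p = 0.0229). LOC4337187 averaged 6.43 ± 0.23 and 7.16 ± 0.23 in DXC, against 8.07 ± 0.18 and 7.83 ± 0.39 in DX, a shift of 0.97 ± 0.22 (adjusted p = 0.0212). Each of these calls was lost when any 1 experiment was left out, with shifts from 0.86 to 1.32 and adjusted p from 0.0639 to 0.38 for ACO1, and from 0.85 to 1.06 and from 0.0628 to 0.308 for LOC4337187. Their direction was the same in all 3 experiments. LOC4347897 went the other way, by -0.93 ± 0.24 (adjusted p = 0.0514, and 0.022 in the blocked fit). With that block LOC4342139 (0.95, adjusted p = 0.037) and LOC4327090 (0.74, adjusted p = 0.036) passed as well.

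The members are 150 of 36643 features, so a list of the sizes used here holds few or none by its size alone, and nothing is read from a count of 0. Aux/IAA (28 features), GH3 and SAUR (10), auxin transport (6), cytokinin (28), gibberellin (17), jasmonate (37), wall loosening (46), secondary wall (22), aquaporins (27), nutrient and sugar transport (71), iron and metal homeostasis (51), defence (41), clock (7), HD-ZIP and ROC homeobox (34), MADS (31), cell cycle (76) and seed remains (14) contributed 0 of the 150. Their median D ran from -0.27 in aquaporins to 0.16 in MADS genes, where that of all features was -0.02. Among 11 crown root regulators WOX11 was the only member. The next of that list was IAA13, an Aux/IAA repressor of auxin response, with a D of -0.98 made of 0.31 at 0 h and -0.67 over 12 to 45 h. The hypoxia list of 8 features held NSHB1 alone, with a median D of 0.06, and the list of 38 NAC, MYB and bHLH features held BU1 and BUL1, with a median D of -0.10.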

How the data were processed

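Stem bases of DXC and DX were measured on Affymetrix arrays, 96 in all, in 32 groups of line and hour with 3 experiments each. The deposited values are log2 levels normalized by the authors with GCRMA, per the submitters' processing notes, and its version is not given in the sources used here. Array medians lay between 4.62 and 4.76, every column carried a sample (0 without one). Symbols came from the platform annotation and, with biotypes and gene order, from a RefSeq table of assembly ASM3414082v1.

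The members, the gene lists and the tests were chosen with earlier results of these data known. D, its parts and the classes (at least 2/3 of D from 1 line) were computed with Python 3.11.15. The tests used limma 3.58.1 in R 4.3.3, with a mean for each line and hour over all 96 arrays (64 residual degrees of freedom), an intensity trend, and Benjamini-Hochberg adjustment over all 36643 features with a threshold of 0.05. This fit takes the arrays as independent, whereas arrays of 1 set had an estimated residual correlation of 0.439. It was also run on simulated data with independent noise for each array. Those data hold no correlation within array sets, so the run does not show how the fit behaves on the real arrays. The tests of 3 h, of 6 and 9 h and of the shift between them use arrays outside the rule. These arrays share their sets with the 0 h arrays, which the rule used. The later shift is orthogonal to the rule's mean but shares its arrays.

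The genes named were the members with 1 symbol that had the lowest D, a name other than a LOC symbol, the lead of each class, neighbouring members or a call; lists added after the members were known are the WOX family, brassinosteroid genes, haemoglobins (4 features, 1 member) and annotated peroxidases. The series text gives replicate numbers as independent experiments. Deviations from the group means were correlated over 48 pairs of same-numbered DXC and DX arrays of an hour. The mean was 0.05, the lowest value -0.64, and 16 pairs were over 0.1. Between arrays of unlike number the mean was -0.03. Alternatives were the experiment as a block, quantile normalization, a low-level filter, no trend, array sets as a random block, the contrast's hours alone, each experiment left out, and other definitions of D.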

Additional observations from a re-analysis of the deposited data

Results flagged for a closer look

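In 4 members the distance between the lines differed between blocks of hours by a test of that difference itself. In a member without a symbol (feature 16246513), the DXC minus DX difference of 6 and 9 h was lower than that of 3 h by -1.329 ± 0.28 (SE, limma adjusted p = 0.00493), with DXC at 6.89 at 3 h and 5.45 at 6 and 9 h, against 6.43 and 6.32 in DX. The shift was -0.62, -1.55 and -1.82 in experiments 1, 2 and 3, and it did not pass without experiment 2 (-1.22, adjusted p = 0.225) or 3 (-1.09, adjusted p = 0.48).

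Between 12 to 21 h and 36 to 45 h the difference shifted by 1.061 in ACO1 (LOC4347225), with 1.46, 0.55 and 1.17 in the 3 experiments. In LOC4337187 it shifted by 0.9693, with 1.20, 0.92 and 0.79. Another member without a symbol (feature 16209597) shifted by -0.8097 (limma adjusted p = 0.02), with -1.33, -0.48 and -0.62, and averaged 5.45 and 4.65 in DXC, against 5.31 and 5.33 in DX. That call was lost without experiment 1 (-0.55, adjusted p = 0.448) and without experiment 3 (-0.91, adjusted p = 0.133). With array sets as a random block, none of the 3 later shifts passed. Groups of 3 arrays are too small for the check of single outlying arrays.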

How the results depend on the processing

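Results are counts of members unless stated. With the experiment as a replicate block, 29 members were called at 3 h (0 in the fit reported), 2 in the shift from 3 h to 6 and 9 h (1), 6 in the later shift (3) and 59 in the contrast the rule used (34). Over all features the same counts were 5375 (34), 184 (130), 325 (165) and 221 (105). Array sets, taken as a random block, gave 32 at 3 h, 30 at 6 and 9 h (59), 11 in the early shift and 0 in the later one, where 10 members had an unadjusted limma p under 0.05. Over all features these counts were 6134, 13321, 456 and 0. With the contrast's hours alone the members called were 27 at 6 and 9 h, 0 in the early shift (22 at an unadjusted limma p under 0.05) and 7 in the later one. Of all features, 8493, 40 and 375 were called. Quantile normalization gave 7 members in the later shift and 22 in the rule's contrast, where 391 and 50 of all features were called. Leaving out each experiment in turn gave 0 to 34 calls at 3 h, 14 to 68 at 6 and 9 h, 0 to 1 in the early shift, 0 to 1 in the later shift and 0 to 17 in the rule's contrast. Over all features these ran from 2 to 5582, 2205 to 19999, 27 to 66, 13 to 63 and 3 to 36. Of the 150 members, 83 were kept with the median of experiments, 99 with 12 to 24 h only, 61 without subtracting 0 h, 98 with 0 and 3 h as the baseline, and 85 to 88 without 1 experiment. For LOC4330080 the 6 and 9 h difference was 0.16 without experiment 2, against -0.25 with all arrays, and ran from -0.47 to 0.16 over the experiments left out. Among the alternatives for single genes, 245 kept direction and side of the threshold, 48 fell short of it and 19 newly passed it. The low-level filter left 117 members to test. Each definition tried chose its own 150 features, and 73 to 117 of them drew at least 2/3 of D from a fall in DXC. A rise in DX supplied at least 2/3 of D in 4 to 42 of them. Among the 150 reported members, the larger part of D lay at 12 to 45 h in 51 to 67. Their early shift lay below 0 in 108 to 117. The alternatives for both of these counts were chosen after seeing the data. A promoter motif search was not run.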
